A study of Mus musculus with 12 samples.

Results

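The genes described here run mitosis and cytokinesis, the division of the chromosomes and then of the cell. They are 33 genes taken by name: 7 kinesins, 7 kinetochore and spindle checkpoint genes, 6 mitotic cyclins and kinases, 4 condensin genes, and 3 genes each of the chromosomal passenger complex, of spindle assembly and of cytokinesis. Every Argonaute (Ago) peak that the authors assigned to one of these names was kept, whatever part of the gene it lay in. That gave 838 peaks of 106382, in 33 of 12102 named genes, from 9 peaks in Birc5 to 59 in Smc2. Ago HITS-CLIP crosslinks RNA to the Ago proteins that carry microRNAs, precipitates Ago and sequences the bound fragments, so that a peak marks a stretch of RNA held by Ago. The libraries came from C57BL/6J mouse fetal liver, from wild-type embryos (WT) and embryos without the miR-144/451 locus (KO), with 100000000 fetal liver cells named as input. The 12 libraries formed 4 groups of 3: WT and KO, each precipitated either with antibody to Ago or with control IgG. Libraries are named here by group and by the number in their title, WT Ago 1, 9 and 10 and KO Ago 3, 12 and 13. No source used here gives the age of the embryos, the pooling of livers, or the liver from which each IgG library was taken, so that p-values measure the spread between these libraries, which may be partly technical. The question put to the members was which of their Ago peaks depended on the locus.

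Fetal liver is the site where red cells are made before birth, and its erythroid precursors divide several times while they mature. In mitosis, condensins compact the chromosomes, kinesins and spindle assembly factors build the spindle, and kinetochores tie each chromosome to it. The spindle checkpoint holds back Cdc20, the activator of the anaphase promoting complex, until all chromosomes are attached, and centralspindlin and the passenger complex then direct the cleavage of the cell. The miR-144/451 locus encodes microRNAs that are abundant in erythroid cells. A microRNA guides Ago to RNA that pairs with its seed, bases 2 to 8.

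The mature microRNAs of the deleted locus, and miR-16-5p, which is encoded elsewhere and served for comparison, are shown because the deposited seed codes refer to them (RefSeq, GRCm38.p6). Capitals mark the seed.
miR-451a: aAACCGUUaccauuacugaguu
miR-144-3p: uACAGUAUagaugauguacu
miR-144-5p: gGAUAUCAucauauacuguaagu
miR-16-5p: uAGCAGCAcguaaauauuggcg
miR-451a lies on chromosome 11 at 78073186 to 78073207, miR-144-3p at 78073047 to 78073066 and miR-144-5p at 78073010 to 78073032, all on the plus strand. No seed of these microRNAs is shared with another of the set. The 6-mer paired with miR-451a reads ACGGUU and its 8-mer AACGGUUA, and those for miR-144-3p read UACUGU and AUACUGUA. A 7-mer-m8 adds the base opposite position 8, a 7-mer-A1 adds an A opposite position 1, and an offset 6-mer is shifted along the seed. For the 3 microRNAs of the locus, the authors also coded sites with a single mismatch at a given seed position.

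The Ago libraries held 202876 to 452157 reads in peaks in WT and 147969 to 341061 in KO, and the IgG libraries 25985 to 42399 in WT and 24622 to 42916 in KO. The members' share of these reads was 0.978% ± 0.208 for WT Ago (SD, n = 3) and 0.718% ± 0.160 for KO Ago (SD, n = 3), with overlapping ranges. For IgG the share was 0.378% ± 0.0487 (WT) and 0.372% ± 0.0941 (KO). Erythroid marker genes moved in the same direction, at 2.02% ± 0.210 for WT Ago and 1.53% ± 0.166 for KO Ago, with ranges of 1.86% to 2.26% and 1.39% to 1.71%. Of the 15 erythroid markers that could be tested on summed reads, 13 had a negative log2 change and 2 passed as lower, Epor and Tfrc. No read was listed under the names Hba-a1, Hba-a2, Hbb-bs, Hbb-bt and Hbb-y. The hepatocyte marker share was 1.15% ± 0.731 for WT Ago and 1.70% ± 0.657 for KO Ago, and all 17 that were tested had a positive change without passing. WT Ago 10 and KO Ago 13 had the fewest reads and the most hepatocyte marker reads of their groups, at 1.99% and 2.46%. In bulk libraries of this kind, fewer cells of a type and less RNA per cell cannot be told apart, and RNA levels were not measured. The part of these differences in the members' results was not tested.

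By the authors' annotation, 541 of the 838 member peaks lay in coding sequence, 247 in 3′UTRs, 26 in introns, 23 in 5′UTRs and 1 downstream of its gene. Coding peaks made up 64.6% of the members' peaks, against 42.6% of all peaks with a gene, and 3′UTR peaks 29.5% against 35.4%. The median width between the positions of half-maximal coverage was 31 bases, against 27 for all peaks.

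In KO Ago libraries, 5 of the 19 member peaks deep enough to test were lower than in WT, in Cdc20, Kif11, Kif15 and Racgap1, and 0 were higher. Kif11 held a pair of them, so that 3 of the 5 lay in the motors Kif11 and Kif15, 1 in the checkpoint target Cdc20 and 1 in the cytokinesis gene Racgap1. Over all genes, 428 of 2425 tested peaks (17.6%) were lower and 34 (1.4%) were higher. A share of 26.3% of the tested members was lower, which at 19 peaks is a small count to set against that background. The lower members fell by a median of 4.13 on the log2 scale, against 2.52 for all lower peaks, and ranged from -5.20 to -3.31. Both medians are of peaks selected by the call, and most of the lower members held few KO reads. They are thus no comparison of how strongly members and other genes lost Ago reads. The other 14 tested members had a median log2 change of -0.01, from -0.95 to 0.82. Tests are edgeR quasi-likelihood tests of read counts over all peaks, with Benjamini-Hochberg adjustment and a threshold of 0.05, and 819 member peaks had too few reads to enter them. A peak with few KO reads could pass this depth filter only by being deep in WT. For such peaks, among them the lower peaks of Kif11, Kif15 and Racgap1, a call as lower was close to fixed by the filter. The same filter applied to all 2425 tested peaks. At an unadjusted p under 0.05, 5 members were lower and 1 was higher. The share of all features at this cut was not computed, here or for later counts at an unadjusted p. DESeq2 and limma-voom gave the same counts of 5 lower and 0 higher. Levels of single peaks are given as CPM, reads scaled to a common total (TMM) over the tested peaks.

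Cdc20 carried the deepest member peak. It lies on chromosome 4, 118433045 to 118433073, minus strand (mm10). The authors' annotation puts it in coding sequence, although peaks of the gene annotated as 3′UTR lie upstream of it. The peak held 107, 93 and 51 reads in WT Ago 1, 9 and 10 but 11, 6 and 4 reads in KO Ago 3, 12 and 13. Each WT library was thus well above each KO library. On the CPM scale it went from 1922 ± 599 to 198 ± 114 (SD, n = 3 each), a log2 change of -3.31 ± 0.42 (SE, edgeR adjusted p = 9.1e-05). The ratio of summed WT to KO reads, scaled for depth, was 10.0, with an exact 95% interval of 6.43 to 16.5. The peak had a 6-mer of miR-451a, a miR-144-3p site with a mismatch at seed position 4 and a 6-mer of miR-16-5p. IgG libraries held 17 reads there in WT and 10 in KO. In CPM of all reads in peaks, summed over a group, it stood at 265 in WT Ago (exact Poisson 95% interval 233 to 300), 30.5 in KO Ago (18.9 to 46.7), 160 in WT IgG (93.1 to 256) and 104 in KO IgG (49.7 to 191). The summed KO Ago level thus lay below both summed IgG levels, with intervals that did not meet. These intervals leave out the spread between libraries, and KO IgG 4, 8 and 14 held 7, 3 and 0 reads there. Whether the KO Ago and IgG libraries differed at this peak was not tested. All such intervals cover counting error only.

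Kif11, the plus-end motor that pushes the spindle poles apart, had a lower peak in its coding sequence and another in its 3′UTR. The 3′UTR peak on chromosome 19, 37421307 to 37421337, plus strand, held 25, 50 and 17 reads in WT Ago 1, 9 and 10 and 2, 2 and 0 in KO Ago 3, 12 and 13. Its level went from 655 ± 126 to 32.4 ± 30.1 CPM, a log2 change of -4.13 ± 0.53 (edgeR adjusted p = 9.1e-05). The coding peak, at 37404114 to 37404137, held 30, 27 and 12 reads in WT and 3, 0 and 0 in KO. It went from 519 ± 184 to 29.7 ± 51.5 CPM, a log2 change of -4.13 ± 0.69 (edgeR adjusted p = 3.8e-04). The groups did not overlap at either peak. Both had a miR-451a site, a 6-mer in the 3′UTR peak and a 7-mer-A1 in the coding peak, and both a miR-144-3p site with a mismatch at seed position 4. Where the mismatched base is a G, that site overlaps the miR-451a 6-mer, so both codes can mark the same bases. The same goes for the Cdc20 peak, and the sequences of the peaks were not read. A further 3′UTR peak of Kif11, at 37420439 to 37420518, behaved otherwise, with 19, 54 and 11 reads in WT and 4, 26 and 6 in KO and groups that overlapped. Its log2 change of -0.95 ± 0.46 was not called (edgeR adjusted p = 0.21). Without KO Ago 12, the library with 26 reads, it was -1.76 and passed (edgeR adjusted p = 0.026, over alternatives 0.026 to 0.68). This peak had no 6-mer of the locus, only a miR-144-3p mismatch at position 7.

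Kif15, a kinesin that helps to keep the spindle bipolar alongside Kif11, was lower at a coding peak on chromosome 9, 123017690 to 123017718, plus strand. WT Ago 1, 9 and 10 held 21, 25 and 12 reads and KO Ago 3, 12 and 13 held 0, 1 and 0. Its level went from 435 ± 66.1 to 6.32 ± 10.9 CPM, a log2 change of -5.20 ± 0.67 (edgeR adjusted p = 9.1e-05). With a single KO read, the ratio of 48.7 had an interval of 8.41 to 1957. The peak had no intact seed match of the locus. Its codes were mismatches, at position 2 for miR-144-3p and position 7 for miR-144-5p.

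Racgap1 encodes the GTPase-activating subunit of centralspindlin, which organises the midzone of the dividing cell. Its lower peak on chromosome 15, 99628634 to 99628663, minus strand, is annotated as 3′UTR, although coding peaks of the gene lie downstream of it. The peak held 15, 26 and 16 reads in WT Ago 1, 9 and 10 and 0, 0 and 1 in KO Ago 3, 12 and 13. It went from 435 ± 82.3 to 12.7 ± 22.0 CPM, a log2 change of -5.17 ± 0.71 (edgeR adjusted p = 1.2e-04). The ratio was 47.9, with an interval of 8.26 to 1924, again resting on 1 KO read. The only code of the locus there was a miR-451a mismatch at position 7. Together the 5 lower peaks held 527 WT Ago reads, 30 KO Ago reads, 23 WT IgG reads and 17 KO IgG reads.

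**Figure D1:**
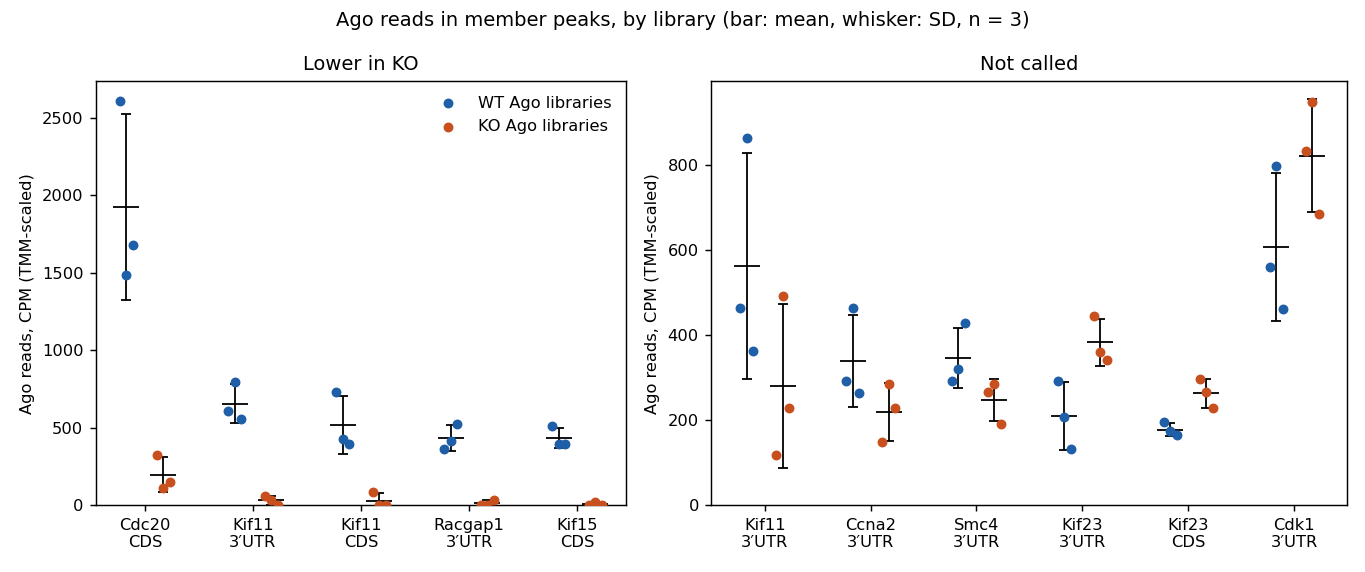
Ago reads (CPM, TMM-scaled, linear axes from 0) of the 5 lower member peaks at left and of the 6 tested peaks with the next smallest p, up to 3 in each direction, at right. Each point is 1 library, horizontal bars are means and whiskers SDs (n = 3). The WT and KO points do not overlap at the lower peaks, from Cdc20 at 1922 and 198 CPM to Kif15 at 435 and 6.32 CPM, while the not called peaks overlap except for Smc4 and the Kif23 pair.

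The other subunit of centralspindlin is the kinesin Kif23, and its peaks lay in the opposite direction without passing. Its 3′UTR peak on chromosome 9, 61917432 to 61917471, held 12, 13 and 4 reads in WT and 15, 19 and 9 in KO. After scaling, every KO library was above every WT library, at 383 ± 55.2 against 210 ± 80.4 CPM, but the log2 change of 0.82 ± 0.37 was not called (edgeR adjusted p = 0.17). This peak had an 8-mer of miR-16-5p and no code of the locus. The Kif23 coding peak, at 61927575 to 61927617, went the same way with 8, 11 and 5 reads against 10, 14 and 6, a log2 change of 0.56 ± 0.38 (edgeR adjusted p = 0.40). Among the tested members, 6 had WT libraries all above KO libraries (22.3% of all tested peaks) and 2 the reverse (10.1%). The sixth of the former was a Smc4 3′UTR peak on chromosome 3, 69032811 to 69032836, with 12, 20 and 13 reads against 9, 15 and 5, a log2 change of -0.41 ± 0.36 and no call (edgeR adjusted p = 0.53).

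Cyclins and kinases of mitosis held 7 of the 19 tested peaks, and 0 of the 7 were called. The deepest, in the 3′UTR of Ccna2 (cyclin A2) on chromosome 3 at 36566625 to 36566651, held 36, 52 and 18 reads in WT and 24, 49 and 15 in KO, 766 ± 153 against 737 ± 180 CPM. Its log2 change was -0.04 ± 0.31 (edgeR adjusted p = 0.95). The Ccna2 3′UTR peak farthest from 0, at 36567036 to 36567113, had 12, 29 and 8 reads against 5, 15 and 6 and a log2 change of -0.63 ± 0.39 (edgeR adjusted p = 0.34). In the 3′UTR of Cdk1, the kinase that drives entry into mitosis, a peak on chromosome 10 at 69338429 to 69338486 had 23, 50 and 14 reads in WT and 28, 50 and 18 in KO, with a log2 change of 0.42 ± 0.31 (edgeR adjusted p = 0.45). A coding peak of Cdk1 stood at 0.01. The remaining tested peaks, in Aurka, Birc5, Bub1b, Ncapd2 and Ccna2, ranged from -0.30 to 0.33, and WT and KO libraries overlapped at each. Wide standard errors mean that changes of moderate size could not be resolved at these peaks.

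The seed codes of the tested peaks can be set beside their changes. All 3 tested members with an intact 6-mer or longer match of miR-451a were lower, as were 79 of all 84 such tested peaks (94.0%), so that the members' count is near that background. No tested member had an intact miR-144-3p match. With only a mismatch or offset code of either microRNA, 2 of 8 were lower, and 24.1% of all such peaks were. Peaks with a miR-144-5p code alone gave 0 of 2 lower (7.95% of all such peaks) and peaks with no code of the locus 0 of 6 (6.28%). Over all 838 member peaks, 31 (3.70%) had an intact match of miR-451a or miR-144-3p, against 4.33% of all peaks, and 516 (61.6%) had no code of the locus, against 59.3%. Tested members with a 6-mer or longer match of miR-16-5p numbered 4, of which the Cdc20 peak was lower and also had a miR-451a 6-mer. The others, in Ccna2 (-0.30), Aurka (0.26) and Kif23 (0.82), were not called.

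Testing shallower peaks, with a minimum count of 5 in place of 10, took in 87 member peaks. Here too, a peak with few KO reads could enter only by being deep enough in WT. Of these, 20 in 12 genes were lower, 23.0% against 13.3% of all 9485 tested peaks, and 0 were higher (0.59% of all). An unadjusted p under 0.05 was reached by 25 lower members and 1 higher member. In coding sequence 12 of 38 tested members were lower (14.5% of all tested coding peaks) and in 3′UTRs 4 of 43 (12.9% of all tested 3′UTR peaks). These classes are the authors' annotation, and the lower 3′UTR peaks of Racgap1 lie upstream of coding peaks of that gene. All 8 tested members with a miR-451a 6-mer or longer were lower, where 187 of all 208 such peaks (89.9%) were. Their median log2 change was -4.15, with a range of -6.30 to -3.21, against a median of -3.48 for all such peaks. The single tested member with a miR-144-3p 6-mer, in Nusap1, stood at 0.67 and was not called. Of 29 with a mismatch or offset code, 9 were lower (19.6% of all such peaks), and of 43 with no code of the locus, 2 were (5.17% of all such peaks).

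**Figure D2:**
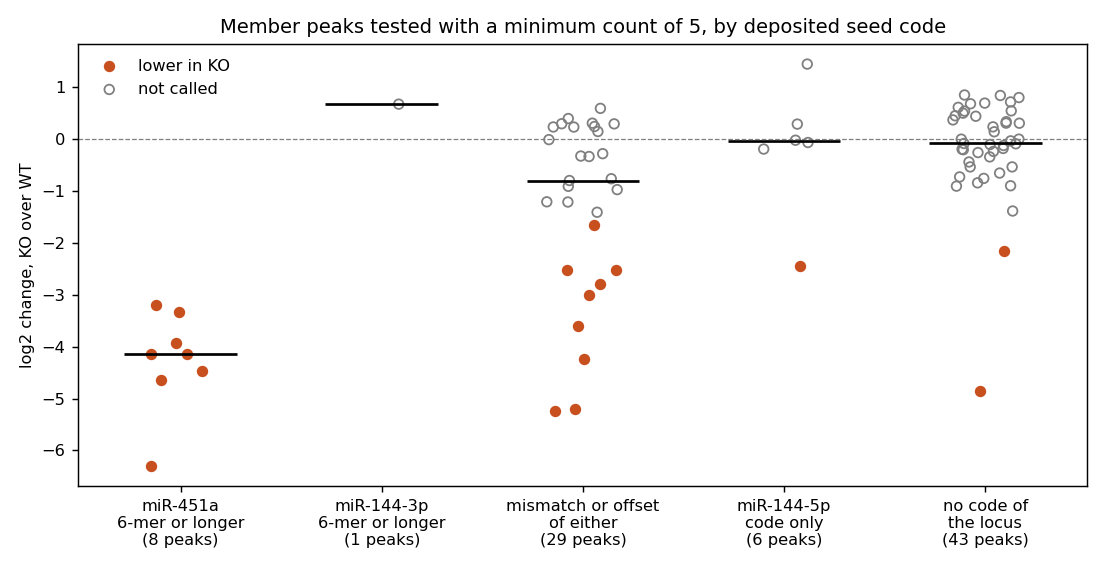
Log2 change, KO over WT, of the 87 member peaks tested with a minimum count of 5, grouped by deposited seed code. Each point is 1 peak, filled where lower at an adjusted p under 0.05, and black lines are medians, -4.15 for the 8 peaks with a miR-451a 6-mer or longer and -0.09 for the 43 with no code of the locus. Points are spread sideways only for legibility.

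Among the peaks that entered at this setting, Cdc20 had another lower coding peak at 118436554 to 118436592, with 8, 21 and 6 reads in WT and 0, 1 and 0 in KO and a miR-451a 7-mer-m8. Its log2 change there was -4.47 ± 0.79. Racgap1 had a lower neighbour, also annotated as 3′UTR, at 99628757 to 99628792, with 11, 26 and 9 reads against 0, 1 and 0. It carried no code of the locus and stood at -4.86 ± 0.74. Aspm, which focuses the spindle poles, had lower coding peaks at 139463196 and 139477345 on chromosome 1. The first held 18, 23 and 7 reads in WT and 1, 1 and 1 in KO (-3.61 ± 0.60), with a miR-451a mismatch at position 6. The second held 11, 22 and 9 reads against 1, 1 and 0 (-3.94 ± 0.66), with a miR-451a 7-mer-m8. Introns gave 3 lower peaks of 4 tested (14.1% of all tested intron peaks). In Cdk1, an intron peak at 69347570 to 69347605 with a miR-451a 8-mer held 8, 19 and 5 reads in WT and 0 in each KO library. Its fitted change depends on the prior count and is no bound, and WT IgG held 2 reads there. In Smc4, an intron peak at 69006348 to 69006373 with a 7-mer-m8 held 14, 21 and 5 reads against 0, 0 and 1 (-4.65 ± 0.81). The last of these, in Nusap1, a spindle microtubule binder, had 8, 14 and 5 reads against 0, 4 and 0 (-2.44 ± 0.72) and only a miR-144-5p mismatch at position 7. So Cdk1 and Smc4 each had an intron peak that was lower beside 3′UTR peaks that were not called.

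The condensin subunit Smc2 had 2 lower peaks of 9 at this setting. The 5′UTR peak at 52439258 on chromosome 4, with a miR-451a 6-mer, held 13, 16 and 7 reads in WT and 2, 0 and 1 in KO (-3.21 ± 0.67), and the coding peak at 52462931 held 17, 26 and 8 against 1, 5 and 0 (-2.80 ± 0.57). Ttk, the checkpoint kinase also called Mps1, had a lower coding peak with 10, 12 and 7 reads against 0, 0 and 1 (-4.23 ± 0.86). Incenp, the scaffold of the passenger complex, had one with 21, 21 and 7 reads against 2, 4 and 1 (-2.53 ± 0.52). Cenpe, a kinetochore motor, had a coding peak with 7, 20 and 6 reads against 1, 4 and 1 (-2.15 ± 0.57) and no code of the locus. Another lower peak of Kif11 lay in coding sequence at 37402209 (15, 17 and 8 reads against 1, 2 and 1, -3.00 ± 0.57). Another of Racgap1, annotated as 3′UTR, lay at 99631116 (12, 25 and 7 reads against 4, 1 and 1, -2.52 ± 0.57). Another of Cdk1 lay in coding sequence (17, 15 and 8 reads against 2, 7 and 2, -1.65 ± 0.49). By gene, 3 of 6 tested peaks of Kif11, 3 of 4 of Racgap1, 2 of 2 of Cdc20, 2 of 4 of Aspm and 2 of 4 of Cdk1 were lower, but 0 of 9 of Ccna2, 0 of 9 of Ncapd2 and 0 of 4 of Plk1.

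With no filter on depth, all 838 member peaks were tested and 43 in 19 genes were lower, 5.13% against 2.54% of all peaks, with 0 higher (0.0329% of all). At an unadjusted p under 0.05 this fit gave 162 lower and 7 higher members, with no share of all peaks at that cut to set beside them. Of the 10 members with a miR-451a 6-mer or longer, 9 were lower (36.0% of all such peaks). Of the 21 with such a miR-144-3p match 4 were (8.34% of all such peaks), and of the 516 with no code of the locus 7 were (1.02%). The depth of members and of other peaks in these classes was not matched. Kif11 had 6 lower peaks, Racgap1 and Smc2 had 4 each, and Cenpf, Ttk and Aspm had 3 each. Many of these peaks hold few reads, the median of the peaks that were not tested at a minimum count of 10 being 12 reads over all 6 Ago libraries.

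Reads summed over all peaks of a gene showed which genes lost Ago reads as a whole. At that level 7 of the 33 members were lower in KO (21.2%), against 235 of 4441 tested genes (5.29%), and 0 were higher (0.653% of all genes). They were Racgap1, Kif11, Cdc20, Kif15, Tpx2, Ttk and Cenpe, which hold all 4 genes with a lower peak. The median log2 change of the members was -0.45, against 0.03 for all tested genes. A negative change was found in 29 of the 33, against 47.5% of all genes, and 19 members lay among the lowest 25% of all genes. In 10 members every WT library was above every KO library (15.4% of all genes), and in 1, Ccnb2, the reverse held (11.6%). At an unadjusted p under 0.05, 14 members were lower and 0 higher, with no share of all genes at that cut to set beside them. After adjustment, DESeq2 gave 4 lower and 0 higher members (117 and 6 of all 4441 tested genes). Summed levels are CPM of all reads with a tested gene name, a scale apart from that of single peaks, and a gene with a few deep peaks can be carried by one of them.

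Among the kinesins, Kif11 stood at 1200, 1234 and 907 CPM in WT Ago 1, 9 and 10 and at 446, 426 and 346 CPM in KO Ago 3, 12 and 13. The summed log2 change was -1.45 ± 0.20 (edgeR adjusted p = 8.6e-04). Kif15 stood at 322, 327 and 236 CPM in WT and 80.4, 138 and 125 CPM in KO, a change of -1.34 ± 0.26 (edgeR adjusted p = 0.0072). In both genes the lowest WT library was far above the highest KO library. Kif4, a motor bound to chromosome arms, and Kif20b, a kinesin of cytokinesis, had changes of -0.92 ± 0.34 and -0.72 ± 0.34, but their WT and KO libraries overlapped and neither was called. Kif18a (-0.49), Kif20a (0.02) and Kif23 (0.20) were not called either. Kif23 stood at 346 ± 42.7 CPM in WT and 393 ± 66.7 CPM in KO.

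Of the kinetochore and checkpoint genes, Cdc20 stood at 826, 545 and 578 CPM in WT and 256, 97.1 and 135 CPM in KO, a summed change of -2.06 ± 0.30 (edgeR adjusted p = 0.0015). Ttk stood at 218, 280 and 193 CPM in WT and 58.5, 138 and 86.6 CPM in KO (-1.21 ± 0.30, edgeR adjusted p = 0.028). Cenpe stood at 561, 575 and 364 CPM in WT and 285, 310 and 202 CPM in KO (-0.89 ± 0.23, edgeR adjusted p = 0.035). Libraries of the genotypes did not overlap in these 3 genes. The checkpoint kinases Bub1 (-0.69) and Bub1b (-0.71), the kinetochore protein Cenpf (-0.59) and Mad2l1 (-0.33), which binds Cdc20, had negative changes that were not called. Ttk lost its call without WT Ago 9, KO Ago 3 or KO Ago 13 (edgeR adjusted p = 0.10, 0.098 and 0.10). Cenpe lost it without WT Ago 1, WT Ago 9, KO Ago 3, KO Ago 12 or KO Ago 13 (edgeR adjusted p = 0.10, 0.10, 0.087, 0.059 and 0.16). Both also lost it by DESeq2 (adjusted p = 0.077 and 0.083), and over all alternatives their adjusted p ran from 0.018 to 0.12 and from 0.0097 to 0.16.

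In cytokinesis, Racgap1 stood at 452, 530 and 436 CPM in WT and 161, 108 and 125 CPM in KO, a change of -1.89 ± 0.23 (edgeR adjusted p = 7.3e-04). Ect2, another gene of that list, had -0.45 ± 0.26, and Anln, an actin-binding protein of the cleavage furrow, -0.10 ± 0.26, and neither was called. Of the spindle assembly genes, Tpx2, which activates Aurora A, was lower at 317, 359 and 279 CPM in WT and 190, 149 and 164 CPM in KO (-0.96 ± 0.22, edgeR adjusted p = 0.022). No single Tpx2 peak was deep enough to test at a minimum count of 10. Its call was lost without WT Ago 9, KO Ago 12 or KO Ago 13 (edgeR adjusted p = 0.074, 0.10 and 0.087) and by DESeq2 (0.094), with a range over alternatives of 0.0074 to 0.10. Aspm (-0.39) and Nusap1 (-0.06) were not called.

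For the cyclins and kinases 0 of 6 were called on summed reads, with a median log2 change of -0.05 and a range from -0.50 to 0.38. Ccna2 stood at 861 ± 99.5 CPM in WT and 832 ± 139 CPM in KO (-0.04 ± 0.19), and Cdk1 at 489 ± 82.1 and 474 ± 43.2 CPM (-0.05 ± 0.19). Plk1, a kinase acting through most of mitosis, had 0.08, Ccnb1 (cyclin B1) -0.20 and Aurka -0.50. Ccnb2 (cyclin B2) was the only member whose KO libraries, at 161, 142 and 164 CPM, all lay above its WT libraries, at 104, 130 and 114 CPM, and its change of 0.38 ± 0.25 was not called (edgeR adjusted p = 0.38). The passenger complex had 0 of 3 called, with Incenp at -0.78 ± 0.25 (edgeR adjusted p = 0.083), Aurkb at -0.24 and Birc5 at -0.08. For the condensins 0 of 4 were called, with Smc4 at -0.58, Smc2 at -0.40, Ncapg at -0.17 and Ncapd2 at -0.02. The group medians ran from -0.72 for the kinesins and -0.71 for the kinetochore and checkpoint genes to -0.05 for the cyclins and kinases. The difference between groups was not tested.

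**Figure D3:**
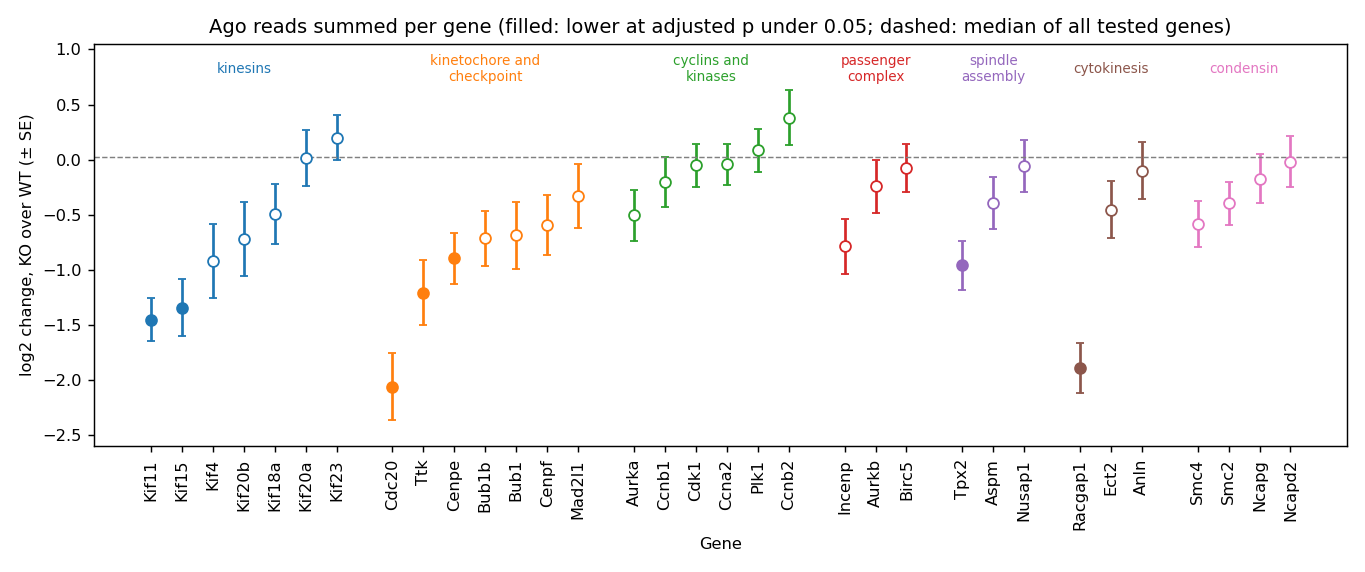
Log2 change, KO over WT, of Ago reads summed per gene (points, with SE) for the 33 members by role, each from 3 libraries per genotype. Filled points mark the 7 genes lower at an adjusted p under 0.05, and the dashed line is the median of all tested genes, 0.03. Cdc20 (-2.06), Racgap1 (-1.89), Kif11 (-1.45) and Kif15 (-1.34) lie lowest, and of the cyclins and kinases Cdk1, Ccna2 and Plk1 lie near the line while Aurka (-0.50) and Ccnb2 (0.38) lie apart from it.

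The lower peaks held differing parts of the reads of these 4 genes. In Cdc20, the lower peak held 59.1% of the gene's WT Ago reads, against 28.2% in Kif15, 20.7% for the pair of Kif11 and 17.4% in Racgap1. In KO Ago those shares were 28%, 1.64%, 3.32% and 1.56%. Reads outside the lower peaks went from 383 ± 66.7 to 128 ± 28.5 CPM in Racgap1 (log2 -1.58) and from 874 ± 158 to 391 ± 39.2 CPM in Kif11 (-1.16). In Cdc20 they went from 252 ± 32.5 to 115 ± 53.1 CPM (-1.13) and in Kif15 from 205 ± 52.1 to 113 ± 28.9 CPM (-0.86). These values were not tested. They include shallower peaks with codes of the locus, and whether mRNA levels moved with them was not measured.

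**Figure D4:**
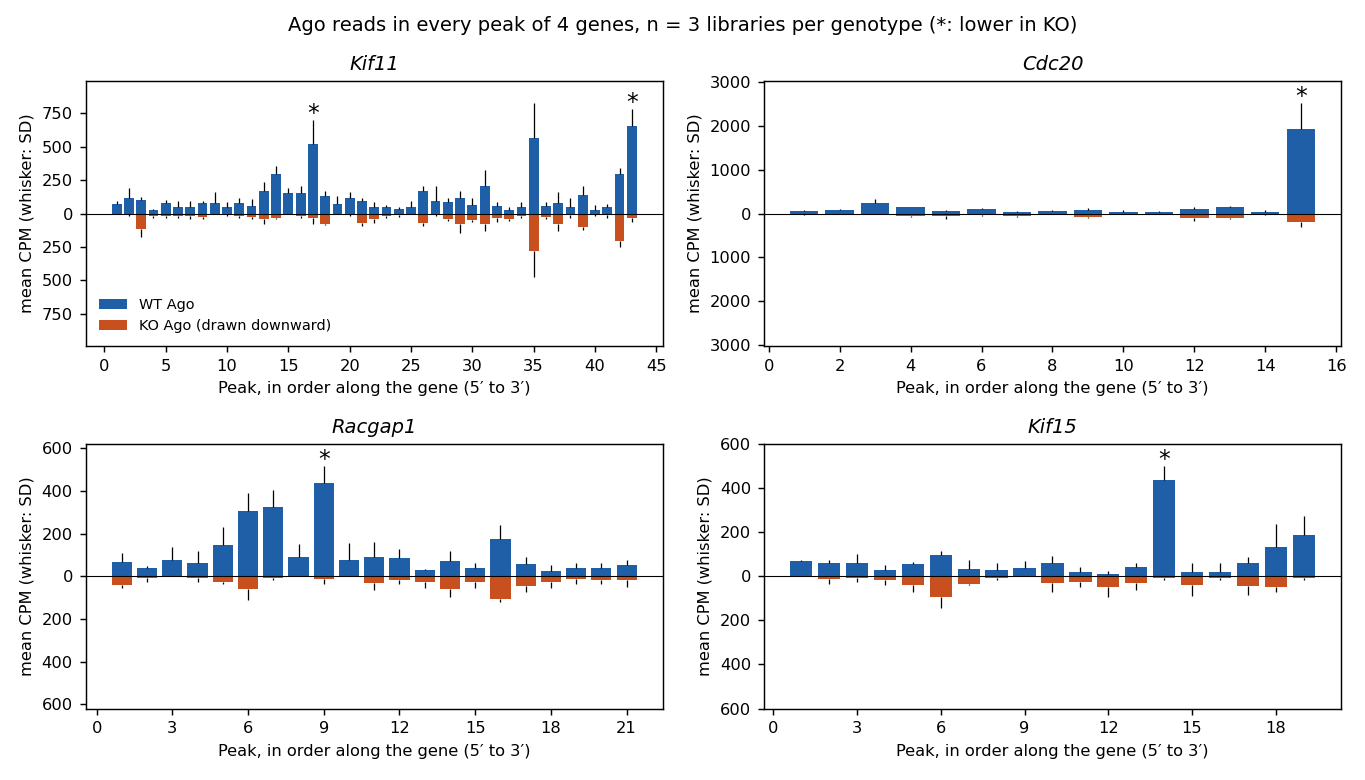
Mean Ago reads (CPM, whisker SD, n = 3) in each peak of Kif11, Cdc20, Racgap1 and Kif15, in order from 5′ to 3′, with WT Ago drawn upward and KO Ago downward from 0. Asterisks mark the 5 lower peaks. In Cdc20 a single peak near the 3′ end carries 59.1% of the WT reads, whereas in Kif11 and Racgap1 most WT reads lie in other peaks.

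Against IgG, few member peaks could be tested, because the IgG libraries are shallow. A peak with few IgG reads could pass the depth filter only by being deep in Ago. For such peaks, a call as higher in Ago was close to fixed by the filter, and the counts below carry little weight. In WT, 3 member peaks were tested and all 3 were higher in Ago, where 321 of 894 tested peaks (35.9%) were higher and 339 (37.9%) lower. The Cdc20 peak was higher by 3.01 ± 0.47 on the log2 scale (edgeR adjusted p = 2.9e-04) and the deep Ccna2 peak by 2.49 ± 0.58 (edgeR adjusted p = 0.0020). Such values depend on the scaling, which here used only reads of the tested peaks. Scaled on all reads in peaks, the Cdc20 peak differed far less, at 265 CPM in WT Ago (233 to 300) and 160 in WT IgG (93.1 to 256). Those intervals met. The Kif11 3′UTR peak at 37421307 had 0 IgG reads in WT, so that its fitted value gives no bound. In KO, 2 member peaks were tested and both were higher in Ago, where 258 of 645 (40%) were higher and 150 (23.3%) lower. They were the Cdk1 3′UTR peak (4.77 ± 0.69, edgeR adjusted p = 7.5e-04) and the Ccna2 peak (3.75 ± 0.72, edgeR adjusted p = 0.0019), both not called between the genotypes. None of the 5 lower peaks was deep enough to be tested in KO. Without WT Ago 1 or WT Ago 10 the WT count was 0 of 0 tested, and without WT Ago 9 it was 1 of 1. It was 15 of 17 without WT IgG 2 (41.5% of all tested peaks higher), and 13 of 17 without WT IgG 6 (31.0%) or WT IgG 11 (28.8%). In KO the count was 0 without any 1 of the Ago libraries, since no member peak then passed the depth filter.

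The authors' deposited table of differential peaks lists 6651 peaks, of which 2372 (35.7%) are lower in KO and 86 (1.29%) higher at a false discovery rate under 0.05. It holds 45 member peaks, and 27 of them in 13 genes are lower and 0 higher. Of the 5 lower peaks above, 4 are in the authors' deposited table and all 4 are lower there, with log2 changes of -4.91 for Kif15, -4.57 for the Kif11 3′UTR peak, -4.64 for its coding peak and -3.76 for Cdc20. The fifth, in Racgap1, is not listed there, and its deposited density over background is 4.61, under the value of 5 that all listed peaks with a gene background exceed. The other 23 lower members of the authors' deposited table had too few reads to be tested here at a minimum count of 10. They include coding peaks of Anln (-4.08 at 22334066), Cenpf (-3.85 at 189654199) and Smc2 (-3.80) and 3′UTR peaks of Kif15 (-3.76 at 123018659) and Kif4 (-3.21). Anln and Cenpf thus had lower peaks in the authors' deposited table while their summed reads were not called. The fits share the Ago libraries and are no independent evidence for each other.

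Other genes of the same machinery were described from wider lists of 129 names, 118 of them with a peak. There, 29 of 72 tested peaks in 18 genes were lower (40.3%), against 17.6% of all tested peaks, and 0 were higher (1.4% of all). On summed reads 11 of 94 genes were lower (11.7%), against 5.29% of all tested genes, with a median log2 change of -0.33. The counts per list that follow have the same background, and several rest on few peaks. Of kinetochore and centromere genes 3 of 3 tested peaks and 4 of 19 genes were lower. Those genes were Zwilch, of the complex that recruits the checkpoint, from 149 ± 14.9 to 12.2 ± 15.2 CPM (-3.57 ± 0.52), Ndc80 (-1.89) and Nuf2 (-1.52), partners in the complex that grips microtubules, and the centromeric histone Cenpa (-0.98). Of spindle and motor genes 9 of 13 tested peaks were lower, and these lay in only 4 genes. On summed reads 4 of 24 genes were lower, among them the centrosomal kinase Nek2, from 766 ± 126 to 193 ± 38.7 CPM (-2.01 ± 0.22), with Dlgap5 (-1.61), the microtubule depolymerase Kif2a (-1.36) and the midzone bundler Prc1 (-0.73). In condensin and cohesin 3 of 7 peaks and 2 of 16 genes were lower, Pds5a (-0.97) and Ncapg2 (-0.83). Another list held passenger complex and cytokinesis genes, but also Mki67, Top2a and Actb. In it, 12 of 38 peaks, in 6 genes, were lower, and on summed reads 1 of 14 genes, Cdca8 (-1.24). Which genes held those 12 peaks is not given here. Genes of mitotic entry and the anaphase promoting complex gave 2 of 11 peaks (18.2%, near the share of all tested peaks) and 0 of 21 genes. For DNA replication, a comparison list that is also active in dividing cells, 7 of 20 peaks (35%) and 3 of 35 genes (8.57%) were lower, with a median of -0.38. Erythroid marker peaks were lower in 31 of 115 cases, near the members' share, and hepatocyte marker peaks in 0 of 94.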

How the data were processed

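Read counts per peak and library are the authors' deposited values, raw reads that overlap a peak by at least 16 bases, on peaks called over all Ago libraries together, per the deposited column description. The submitters' processing notes name cutadapt, STAR, bedtools, limma and genome build mm10, with no versions. Peak bounds are the deposited positions of half-maximal coverage, written from 1. The authors' deposited coverage signal (the lowest peak height), the deposited IgG ratio and the deposited density and seed scores were used as given. The log2 changes, p-values and false discovery rates of the authors' deposited table come from voom and limma on filtered peaks and were only copied.

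Counts were tested over all peaks, or over all genes after summing, by quasi-likelihood in edgeR (version 4.0.16, R 4.3.3, TMM scaling, filterByExpr at minimum count 10, minimum total 15), using the 6 libraries of each comparison and no covariate. Adjusted p-values are Benjamini-Hochberg values. CPM are computed on the reads of tested features, 25097 to 63658 per Ago library for single peaks. DESeq2 1.42.0, limma-voom (limma 3.58.1), other scalings and filters, and omission of each library were alternatives. The test was checked on simulated counts. Members, lists and rules were chosen with earlier results of these data known. Named peaks are those called, and, with fewer than 6 called, up to 3 with the smallest p per direction. Named genes are those called on summed reads, and up to 4 per wider list. Of 244 member peaks with at least 20 reads, 4 had the counts and width of another peak elsewhere (in Ccnb1, Aspm and 2 in Kif11), and none of these was tested at a minimum count of 10. Counts carry no known molecular identifiers, so that repeated copies of a fragment cannot be told from separate fragments. The intervals treat each read as separate, cover counting error only and may be too narrow.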

Additional observations from a re-analysis of the deposited data

How the results depend on the processing

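The 5 lower member peaks kept their call in all 69 alternative values computed for them. The count of lower members was 5 of 19 by library size alone, DESeq2, limma-voom and DESeq2 size factors. Of all 2425 peaks tested there, 395, 373, 419 and 428 were lower. It was 20 of 87 with a minimum count of 5 (1259 of all 9485), 43 of 838 with no filter (2704 of all 106381) and 4 of 7 with the authors' filter (290 of all 1236). Without libraries 10 and 13, an alternative chosen after seeing the data, it was 16 of 56 (623 of all 4383). Leaving out 1 library at a time gave 5 to 17 lower members. There were 16 of 47 without WT Ago 10 (802 of all 4780 peaks) and 10 of only 18 without KO Ago 12 (450 of all 2173). Without KO Ago 3 there were 17 of 51 (986 of all 4836), and without KO Ago 13 17 of 53 (904 of all 4976). Summed per gene, the main count of 7 became 4 with DESeq2 (117 of all 4441 genes) and 4 without libraries 10 and 13 (84 of all 5464). It became 5 with no filter (297 of all 12102) and 6 with library size alone (195 of all 4441). Over the single omissions it was 4 to 10, with 4 without WT Ago 9 (154 of all 4284) or KO Ago 13 (115 of all 5220). Racgap1, Kif11, Cdc20 and Kif15 kept their summed call in 14 of 14 alternatives each, while Tpx2, Ttk and Cenpe account for the 20 of 98 values that lost it. No result reversed, and 0 members were higher in KO in every setting run, per peak and summed. Against IgG, the WT count of 3 became 73 with no filter (4.06% of all peaks) and 0 to 15 over the single omissions. The KO count of 2 became 21 with no filter (1.86% of all peaks) and 0 to 2 over the single omissions. Library size alone moved the median of all tested peaks from 0.09 to 0.25. No paired analysis was possible because no source used here says which WT and KO libraries belong together. Depth kept 819 of 838 member peaks out of the test at a minimum count of 10.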
